A study of Rattus norvegicus with 23 samples.

Results

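Acta2, Actg2, Tagln, Cnn1, Myl9, Myh11, Tpm1, Tpm2, Lmod1 and Cald1 are genes of the smooth muscle contractile programme, whose transcripts also rise when fibroblasts turn into myofibroblasts. They were taken by symbol from the count table of the rat cells, where all 10 were found among 30452 genes, on chromosome 1 (Acta2), 3 (Myl9), 4 (Actg2 and Cald1), 5 (Tpm2), 8 (Tagln, Cnn1 and Tpm1), 10 (Myh11) and 13 (Lmod1). Their levels are described in NRK-52E and NRK-49F cells, established lines from rat kidney that the labels call epithelial and fibroblast. The cells were kept in serum-free medium for 24 h and then held for 48 h at pH 7.4 or at pH 6.0, the lower pH being set with HCl. RNA sequencing was done on 6 samples of NRK-52E cells at pH 7.4, 6 at pH 6.0, 6 samples of NRK-49F cells at pH 7.4 and 5 at pH 6.0. The labels further divide the NRK-52E samples into sample groups 1 and 3 and the NRK-49F samples into sample groups 4 and 6, without saying what a sample group is. Each line is a single line, and the labels do not tell whether samples of a group came from separate cultures, so p-values measure the spread between these samples, which may be technical.

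In smooth muscle, actin filaments and myosin filaments slide past each other. Myosin is switched on when its regulatory light chain is phosphorylated, and tropomyosin, caldesmon, calponin and leiomodin shape or regulate the actin filament. Serum response factor and its myocardin-family partners switch many of these genes on through the CArG box, a short motif rich in A and T. The myocardin-related members of that family do so more strongly when less free actin is left in the cytoplasm. Myofibroblasts, the contractile fibroblasts of wounds and scarred kidney, are usually recognised by alpha smooth muscle actin, the product of Acta2.

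Between 16412564 and 34250535 read pairs or reads were counted per sample, so that 3 counts, taken here as the smallest level the depth can show, stood for 0.0839 to 0.203 FPM (counts per 1000000 of the TMM-scaled library size, TMM being edgeR's scaling between samples). Genes differ in transcript length and lengths were not used here, so a level is compared between samples and never between genes. The defining markers of the labelled cell type were present in the fibroblast line and mostly absent in the epithelial line. The summed level of 13 fibroblast markers was 19350 to 21610 FPM in NRK-49F cells at pH 7.4 and 14530 to 15830 FPM at pH 6.0, against 5642 to 8859 FPM and 2159 to 3535 FPM in NRK-52E cells. By the test given below, 11 of the 12 tested were higher and 1 lower in NRK-49F cells at each pH. Their median log2 fold changes between the lines were 6.93 at pH 7.4 and 8.41 at pH 6.0. Among all genes tested, 33.9% and 38.9% were called higher in NRK-49F cells. Of 12 epithelial markers, 8 had at most 3 counts in every NRK-52E sample. Cdh1, the epithelial cadherin, had 0 to 12 counts and Epcam 0 or 1 in NRK-52E cells, and Krt8 carried nearly the whole sum, with 499 ± 76.4 FPM in NRK-52E and 839 ± 193 FPM in NRK-49F cells at pH 7.4 (SD, n = 6 each). The summed epithelial markers were lower at pH 6.0, with 463 to 683 FPM at pH 7.4 and 199.7 to 264.8 FPM at pH 6.0 in the NRK-52E samples, and 669 to 1209 FPM and 439 to 697 FPM in those of NRK-49F cells. Several smooth muscle genes were in fact higher in the line labelled epithelial, as the next paragraphs give, so the genes are called here by their function and not as myofibroblast genes. Myocd, the cofactor specific to muscle, had at most 3 counts in any sample, and the striated muscle actins Acta1 and Actc1 had at most 21 and 2. Kdr, an endothelial receptor, was at 0 in all 23 samples. Of the lists for other cell types, 6 pericyte markers summed to 28.0 to 41.9 FPM in NRK-52E cells at pH 7.4 and 10.2 to 22.7 FPM at pH 6.0, and to at most 10.6 FPM in NRK-49F cells. The 5 leukocyte markers summed to 21.98 to 33.98 FPM in NRK-49F cells at pH 7.4 and 218 to 252 FPM at pH 6.0, the 5 endothelial markers to 9.24 to 21.02 FPM and 1.42 to 3.25 FPM in NRK-52E cells, and the 9 striated muscle markers to at most 15.3 FPM anywhere. In NRK-52E cells the leukocyte sum was 3.40 to 5.65 FPM and 7.99 to 12.26 FPM. By the test given below, 1 of 3 leukocyte markers tested was higher at pH 6.0 in NRK-49F cells, and 3 of 3 in NRK-52E cells. Of 2 endothelial markers tested in NRK-52E cells, 1 was higher and 1 lower. The shares of all genes are given in the next paragraph. The part of these shifts in the changes below was not tested. In bulk samples, fewer cells of a type and less RNA per cell cannot be told apart.

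At pH 6.0, Acta2, Tagln and Cald1 fell in both lines. Of the 10 genes, 8 passed the filter on low counts. In NRK-52E cells Myh11 rose besides, and in NRK-49F cells Myl9, Tpm1 and Lmod1 fell as well and none rose. A change was called when the Benjamini-Hochberg adjusted p of edgeR's quasi-likelihood test, over all 14777 genes tested, was under 0.05. Among all those genes, 24.7% were called higher and 36.6% lower in NRK-52E cells, beside 1 and 3 of the 8 genes here. In NRK-49F cells the background was 14.5% higher and 14.4% lower, beside 0 and 6 of the 8. The median log2 fold change of the 8 was -0.19 in NRK-52E cells, where the median of all genes tested was -0.12, and -1.28 in NRK-49F cells, where the median of all was 0.00088. These counts and medians include Lmod1 in NRK-52E and Myl9 in NRK-49F cells, both at few counts there. With each line fitted alone, neither passed the filter in that line. The call of Myl9, among the 6 in NRK-49F cells, was lost in 6 of the 23 fits that left out 1 sample.

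**Figure D1:**
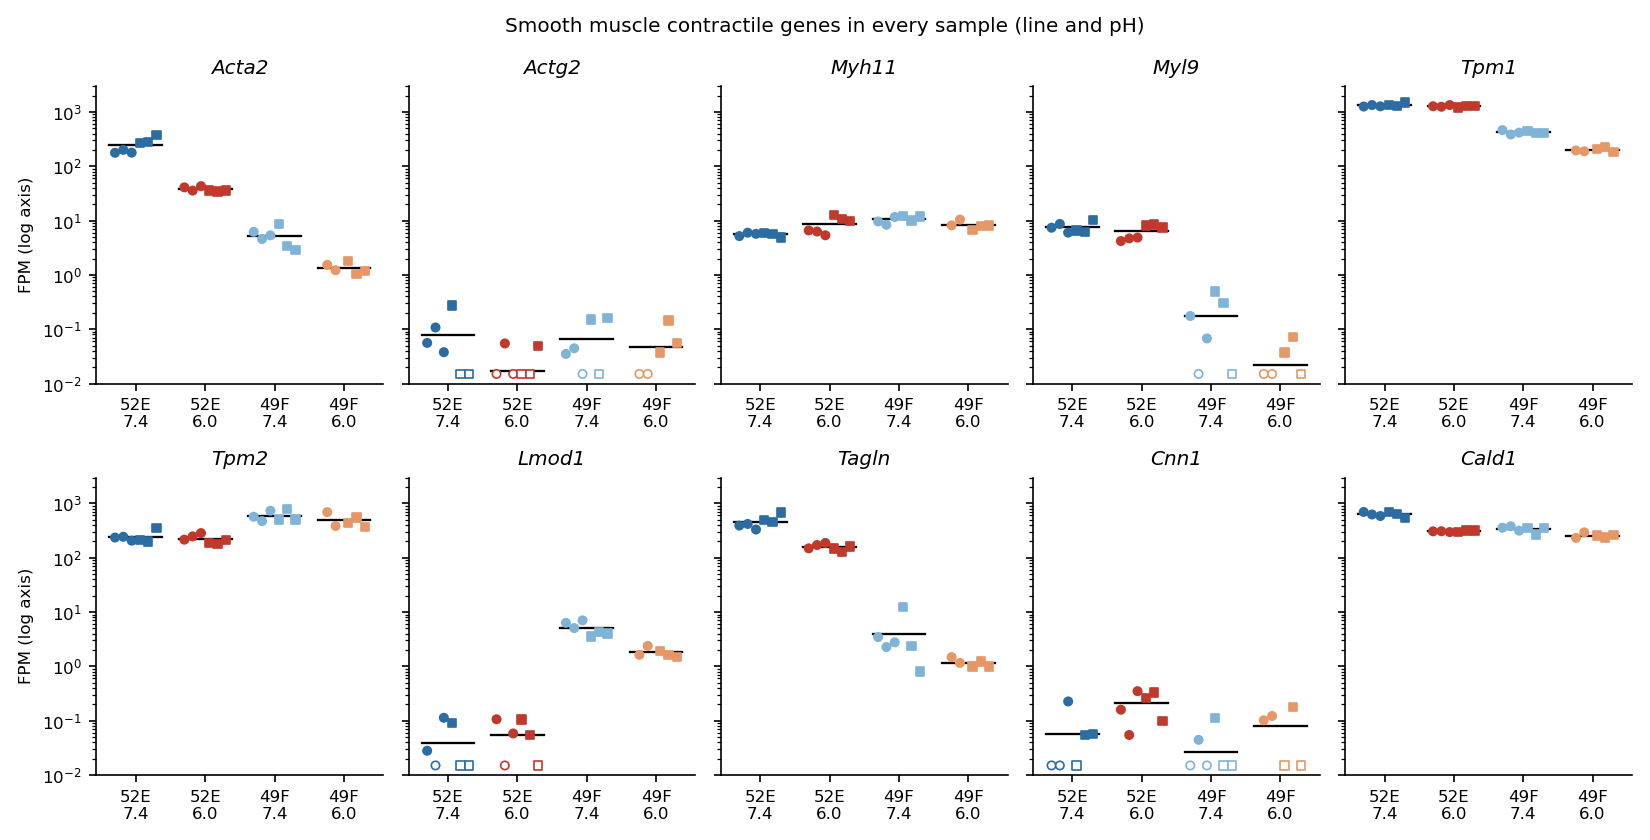
Level of each contractile gene in every sample, in FPM on a log axis, by cell line and pH (circles: sample groups 1 and 4, squares: sample groups 3 and 6, black bar: group mean, open symbols at the bottom edge: 0 counts). Acta2 lies between 177 and 374 FPM in NRK-52E cells at pH 7.4 and between 34.4 and 43.03 FPM at pH 6.0, while Actg2 and Cnn1 stay below 0.5 FPM in every sample.

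Acta2 encodes alpha smooth muscle actin, the actin that marks myofibroblasts. In NRK-52E cells it ranged from 177 to 374 FPM at pH 7.4 with a median of 236 FPM, and from 34.4 to 43.03 FPM at pH 6.0 with a median of 35.6 FPM. The 2 ranges did not overlap, and the mean fell from 246 ± 76.8 to 37.5 ± 3.53 FPM (SD, n = 6 each). The fitted log2 fold change was -2.71 (SE 0.21, edgeR adjusted p = 9.42e-11), which is 6.55-fold lower. In NRK-49F cells the gene was present at a far lower level, from 2.86 to 8.71 FPM at pH 7.4 with a median of 4.96 FPM. At pH 6.0 the 5 samples of this line had 1.05, 1.17, 1.22, 1.53 and 1.82 FPM. All of them lay below all samples at pH 7.4, and the fall was 3.80-fold (log2 fold change -1.93, SE 0.28, edgeR adjusted p = 9.52e-06). The share of all genes tested whose ranges at the pH values are apart was not counted, for this gene or those below.

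The upstream sequence of Acta2 is widely studied for its CArG boxes, so its window is shown with those of Tpm1 and Cald1, the other members that moved and held a motif. RefSeq windows of 250 bases before the transcription start (build GRCr8) were found for 6 of the 10 genes, namely Acta2, Actg2, Cnn1, Tpm1, Tpm2 and Cald1, the last with 2 windows. Capitals mark matches to the CArG box, taken as CC, 6 letters with at most 1 C or G among them, then GG, and to the MCAT motif that TEAD factors bind, taken as CATTCC or its reverse complement GGAATG, and no match to one overlapped a match to the other.
Acta2, chr1:241172504-241172753, minus strand: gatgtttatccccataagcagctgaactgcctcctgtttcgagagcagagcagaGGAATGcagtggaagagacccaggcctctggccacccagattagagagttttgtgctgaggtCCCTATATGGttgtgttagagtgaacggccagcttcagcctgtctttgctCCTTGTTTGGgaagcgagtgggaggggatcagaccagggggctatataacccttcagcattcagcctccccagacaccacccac
Tpm1, chr8:76543416-76543665, minus strand: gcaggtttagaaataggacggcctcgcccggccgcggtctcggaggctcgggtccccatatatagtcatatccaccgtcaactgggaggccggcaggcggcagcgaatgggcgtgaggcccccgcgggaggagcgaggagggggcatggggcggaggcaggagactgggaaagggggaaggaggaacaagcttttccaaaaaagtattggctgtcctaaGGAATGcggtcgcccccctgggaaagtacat
Cald1, first window, chr4:64233006-64233255, plus strand: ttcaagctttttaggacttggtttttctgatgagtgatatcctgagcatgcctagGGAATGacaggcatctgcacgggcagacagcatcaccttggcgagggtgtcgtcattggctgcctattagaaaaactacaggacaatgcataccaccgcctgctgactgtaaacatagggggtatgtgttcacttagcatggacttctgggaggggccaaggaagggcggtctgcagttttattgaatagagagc
The Acta2 window held 2 CArG boxes, which begin 134 and 84 bases before the start, and an MCAT motif 196 bases before it. The Tpm1 window held an MCAT motif 31 bases and the first Cald1 window 195 bases before the start, and no CArG box by this definition. Of 33469 windows of the same length, 8.08% held a CArG box, 0.693% at least 2 of them and 12.1% an MCAT motif. The windows of Actg2, Cnn1, Tpm2 and the second window of Cald1 held neither, and Tagln, Myl9, Myh11 and Lmod1 had no window in the table. A match says only that the letters are there.

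Actg2, the enteric smooth muscle actin, was at the limit of detection throughout. It had 11 counts over the 6 NRK-52E samples at pH 7.4, 2 over the 6 at pH 6.0, and 9 and 6 over the NRK-49F samples at pH 7.4 and pH 6.0. No sample had more than 6 counts. Actg2 did not pass the filter and no test was run on it, so no difference is read from these counts.

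The tropomyosins lie along the actin filament. Tpm1 ranged from 1257 to 1485 FPM in NRK-52E cells at pH 7.4 (median 1318 FPM) and from 1207 to 1339 FPM at pH 6.0 (median 1279 FPM). These ranges overlapped, and the log2 fold change of -0.065 (SE 0.069, edgeR adjusted p = 0.427) was within the spread. In NRK-49F cells, by contrast, Tpm1 ranged from 384 to 463 FPM at pH 7.4 (median 414 FPM), and the samples at pH 6.0 had 183, 188, 195, 206 and 224 FPM. The 2 conditions were fully apart, with a 2.11-fold fall (log2 fold change -1.08, SE 0.07, edgeR adjusted p = 1.47e-10). Tpm2 did not pass the test in either line. It ranged from 199 to 354 FPM (median 225 FPM) at pH 7.4 and from 180 to 284 FPM (median 215 FPM) at pH 6.0 in the NRK-52E samples. For the fibroblast line its range was 473 to 789 FPM (median 538 FPM) at pH 7.4, and the samples at pH 6.0 had 366, 384, 437, 550 and 691 FPM. The conditions overlapped in both lines. The log2 fold changes of Tpm2 were -0.13 (SE 0.17, edgeR adjusted p = 0.531) and -0.30 (SE 0.18, adjusted p = 0.235).

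Lmod1, a leiomodin that starts new actin filaments in smooth muscle, exceeded 3 counts in every NRK-49F sample and in no NRK-52E sample. In NRK-49F cells it ranged from 3.56 to 7.03 FPM at pH 7.4 with a median of 4.67 FPM, and the samples at pH 6.0 had 1.50, 1.62, 1.63, 1.93 and 2.38 FPM. The conditions did not overlap and the fall was 2.78-fold (log2 fold change -1.48, SE 0.28, edgeR adjusted p = 0.000328). No NRK-52E sample held more than 3 counts of Lmod1, with 6 in all at pH 7.4 and 7 at pH 6.0, so its fold change in that line is not read. It is still drawn in the figures of changes and enters the median of the tested genes and the difference of the responses.

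Cald1 encodes caldesmon, which binds actin and tropomyosin and holds back the myosin ATPase. In NRK-52E cells it ranged from 533 to 697 FPM at pH 7.4 (median 636 FPM) and from 297 to 318 FPM at pH 6.0 (median 307 FPM). The ranges were apart, and the fall was 2.05-fold (log2 fold change -1.04, SE 0.08, edgeR adjusted p = 2.99e-10). In NRK-49F cells it ranged from 269 to 379 FPM at pH 7.4 (median 355 FPM), while the samples at pH 6.0 had 232, 235, 257, 263 and 293 FPM. Here the conditions overlapped through the lowest sample at pH 7.4, and the smaller fall of 1.32-fold passed the test (log2 fold change -0.40, SE 0.09, edgeR adjusted p = 0.00121).

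Tagln encodes transgelin, or SM22 alpha, an actin-bundling protein and an early marker of smooth muscle. In NRK-52E cells its range was 331 to 684 FPM at pH 7.4 (median 439 FPM) and 129 to 187 FPM at pH 6.0 (median 155 FPM). The ranges were apart, with a 2.94-fold fall (log2 fold change -1.56, SE 0.32, edgeR adjusted p = 0.000165). NRK-49F cells at pH 7.4 had 0.808, 2.27, 2.36, 2.77 and 3.47 FPM in 5 samples and 12.5 FPM in sample A051, while at pH 6.0 the samples had 1.000, 1.00, 1.16, 1.23 and 1.48 FPM. The lowest sample at pH 7.4 lay below all samples at pH 6.0, so the conditions overlapped. The log2 fold change was -1.81 (SE 0.46, edgeR adjusted p = 0.00417), and without sample A051 it was -1.01 (adjusted p = 0.00897).

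Sample A051 also carried more signal of the other line than the other NRK-49F samples did. Over 28 genes at 50 FPM or more in NRK-52E cells and on average under 1% of that in NRK-49F cells, a set picked from these data, A051 had 3.87% of the NRK-52E level at the same pH, and the other NRK-49F samples had 0.0787% to 0.927%. Its Tagln level was 2.69% of that of NRK-52E cells, its Myl9 level 6.54% and its Acta2 level 3.54%. In the other NRK-49F samples Tagln was at 0.174% to 0.938%, Acta2 at 1.16% to 4.85% and Myl9 at 0% to 3.98%, the last highest in sample A052, which had 0.566% over the 28 genes. The part of this signal in the levels of Tagln, Myl9 and Acta2 in NRK-49F cells was not tested. Without A051 the log2 fold change of Acta2 in NRK-49F cells was -1.71 (edgeR adjusted p = 1.94e-05). Among NRK-52E samples the signal of NRK-49F cells, over 76 genes chosen the same way, was 0.342% to 1.66% at pH 7.4, highest in sample A021, and 0.100% to 0.170% at pH 6.0.

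Cnn1 encodes calponin 1, which binds actin and is a late marker of contractile smooth muscle. It did not pass the filter. The NRK-52E samples held 0 to 6 counts at pH 7.4, 8 in all, and 1 to 12 counts at pH 6.0, 29 in all, whereas those of NRK-49F cells held 4 and 9 in all. In FPM the NRK-52E means were 0.056 ± 0.088 and 0.209 ± 0.123 (SD, n = 6 each), with overlapping ranges, and no test was run on them.

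Myh11 encodes the smooth muscle myosin heavy chain and was the only tested member called higher at pH 6.0. In NRK-52E cells its range was 4.87 to 5.97 FPM at pH 7.4 (median 5.71 FPM) and 5.36 to 12.8 FPM at pH 6.0 (median 8.20 FPM). The 3 highest samples at pH 6.0 were those of sample group 3, and the ranges overlapped through sample group 1. The log2 fold change was 0.63 (SE 0.18, edgeR adjusted p = 0.00352). In NRK-49F cells Myh11 ranged from 8.36 to 12.3 FPM at pH 7.4 (median 10.8 FPM), and the samples at pH 6.0 had 6.71, 7.94, 8.11, 8.15 and 10.4 FPM, a difference within the spread (log2 fold change -0.36, SE 0.18, edgeR adjusted p = 0.143). Nde1, which lies next to Myh11 in the RefSeq annotation, had log2 fold changes of -0.23 and -0.12 in the same 2 comparisons. No option for strand is named for the counting.

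Myl9 encodes the smooth muscle form of the myosin regulatory light chain. In NRK-52E cells it ranged from 6.00 to 10.3 FPM at pH 7.4 (median 6.99 FPM) and from 4.20 to 8.50 FPM at pH 6.0 (median 6.18 FPM). These ranges overlapped and the log2 fold change of -0.25 (SE 0.295, edgeR adjusted p = 0.471) was within the spread. In NRK-49F cells Myl9 was near the floor, with 0, 0, 1, 5, 9 and 13 counts in the samples at pH 7.4 and 0, 0, 0, 1 and 2 at pH 6.0. The summed counts were 28 and 3, a ratio of 7.2 with an exact 95% interval of 2.22 to 37 that covers counting error only. Its call as lower in NRK-49F cells (edgeR adjusted p = 0.0297) was lost without sample A051 (adjusted p = 0.104), and singly without A042, A043, A052, A054 or A056 (adjusted p from 0.0524 to 0.0678).

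**Figure D2:**
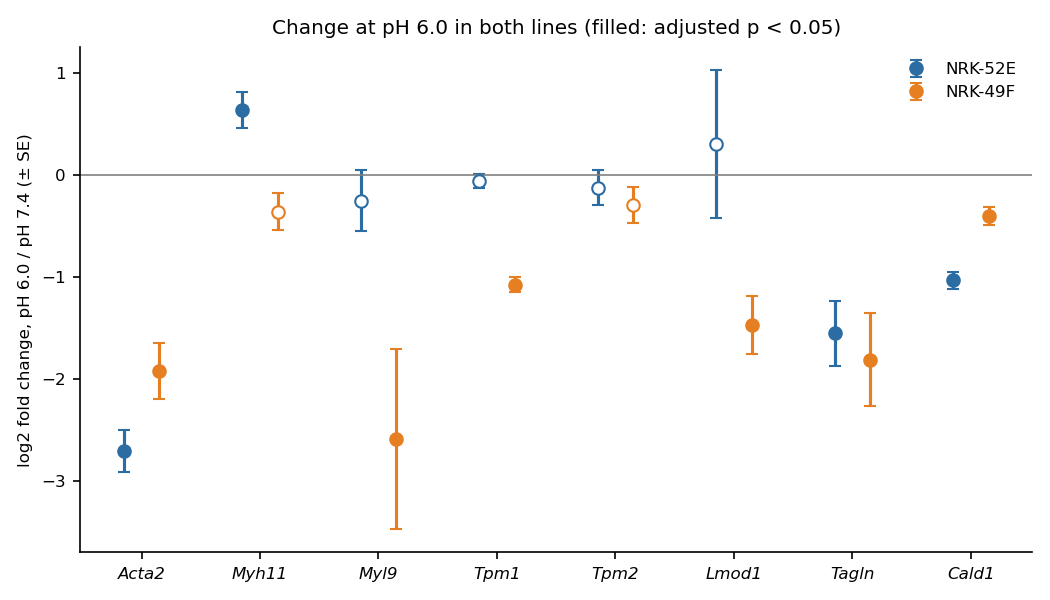
Log2 fold change from pH 7.4 to pH 6.0 of the 8 tested genes in NRK-52E (blue) and NRK-49F cells (orange), with the standard error as bars and filled points for an adjusted p under 0.05. Acta2, Tagln and Cald1 are lower in both lines, the points of Tpm1, Lmod1 and Myl9 are filled for NRK-49F cells and open for NRK-52E cells, and Myh11 is higher in NRK-52E cells (0.63).

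The 2 responses were then compared directly, as the change in NRK-49F cells minus the change in NRK-52E cells. The difference was below 0 for Tpm1, Myh11 and Myl9, of which Myh11 was called higher and the others were not called in NRK-52E cells, and above 0 for Cald1, which fell in both lines, so that 4 of the 8 tested genes were called, beside 41.4% of all genes tested. For Tpm1 the difference was -1.01 on the log2 scale (SE 0.10, edgeR adjusted p = 3.71e-08). For Myh11 it was -0.99 (SE 0.26, edgeR adjusted p = 0.00302) and for Cald1 0.63 (SE 0.12, adjusted p = 0.000201). For Myl9 it was -2.34 (SE 0.94, edgeR adjusted p = 0.0494), a value that rests on 28 and 3 counts in NRK-49F cells and lost its call in 15 of the 23 fits that left out 1 sample. Tpm2 and Tagln gave differences of -0.17 (SE 0.25, edgeR adjusted p = 0.63) and -0.26 (SE 0.55, adjusted p = 0.747). For Acta2 it was 0.79 (SE 0.35, edgeR adjusted p = 0.072). Without A051 the difference of Acta2 was 1.00 and passed the test (edgeR adjusted p = 0.0132), as it did without A021 (adjusted p = 0.0471) or A023 (adjusted p = 0.0477). The difference of Lmod1 was -1.78 (SE 0.84, edgeR adjusted p = 0.0943), where the NRK-52E side had 0 to 3 counts per sample, and it passed the test without sample A023 (adjusted p = 0.036).

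The lines were also compared at the same pH. At pH 7.4 all 8 tested genes were called between the lines. Lmod1 did not pass the filter with NRK-52E cells fitted alone, nor Myl9 with NRK-49F cells fitted alone. Both were kept through the line where they are high, so their calls were largely set by the filter and are no support. Acta2, Tagln, Myl9, Tpm1 and Cald1 were lower in NRK-49F than in NRK-52E cells, and Myh11, Tpm2 and Lmod1 were higher, beside 35% of all genes tested called lower and 33.9% called higher. Tagln was 112-fold lower in NRK-49F cells (log2 fold change -6.81, SE 0.41, edgeR adjusted p = 2.65e-13), at 4.02 ± 4.23 FPM against 463 ± 122 FPM (SD, n = 6 each), and without A051 the log2 fold change was -7.61. Acta2 was 47.2-fold lower (log2 fold change -5.56, SE 0.24, edgeR adjusted p = 8.3e-16) and Myl9 37.9-fold lower (log2 fold change -5.24, SE 0.41, adjusted p = 3.96e-11). The value of Myl9 rests on 28 counts in NRK-49F cells, 13 of them in A051. Without A051 its log2 fold change was -5.825. The ranges of the lines did not overlap at either pH for Acta2, Tagln and Myl9, nor for Tpm1, Tpm2, Lmod1 and Cald1. Those of Myh11 overlapped at pH 6.0 only. The share of all genes tested that are apart in this way was not counted. Tpm1 was 3.17-fold lower and Cald1 1.86-fold lower in NRK-49F cells, while Myh11 was 1.91-fold and Tpm2 2.46-fold higher. For Lmod1, 696 counts in NRK-49F cells stood against 6 in NRK-52E cells, a ratio of 114 with an exact 95% interval of 52.3 to 313 for counting error.

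At pH 6.0 the same 5 genes were lower and Tpm2 and Lmod1 higher in NRK-49F cells, beside 36.6% of all genes called lower and 38.9% called higher. The limit given for Myl9 and Lmod1 holds here too, at 3 counts of Myl9 in NRK-49F cells and 7 of Lmod1 in NRK-52E cells. Myh11, at 8.27 ± 1.34 FPM (n = 5) and 8.61 ± 2.97 FPM (n = 6), no longer differed beyond its spread (log2 fold change -0.058, SE 0.18, edgeR adjusted p = 0.782). Tpm1 was then 6.39-fold lower (edgeR adjusted p = 8.24e-19) and Cald1 1.2-fold lower (adjusted p = 0.00965). From high to low, the 4 conditions stood in the order NRK-52E at pH 7.4, NRK-52E at pH 6.0, NRK-49F at pH 7.4, NRK-49F at pH 6.0 for Acta2 and Tagln. The ranges of neighbours in that order did not overlap for Acta2, and for Tagln those of the 2 NRK-49F conditions did. For Cald1, NRK-49F cells at pH 7.4 came second, with 339 ± 39.8 FPM (n = 6) beside 307 ± 8.52 FPM in NRK-52E cells at pH 6.0 (n = 6), a pair whose ranges overlapped and that was not tested. Sample groups are nested in lines, so the line and a batch by sample group cannot be told apart.

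The response was also examined within each sample group. Of all 14777 genes tested, 4447 were called lower in sample group 1, 4958 in 3, 1624 in 4 and 1607 in 6. Those called higher were 2785, 3520, 1779 and 1520 in the same order. Acta2 was called lower in all 4, with log2 fold changes of -2.21 and -3.13 in sample groups 1 and 3 (the NRK-52E samples) and of -1.96 and -1.89 in sample groups 4 and 6 (the NRK-49F samples). Cald1 was called lower in all 4 as well (-1.07, -1.01, -0.42 and -0.38), and Tpm1 and Lmod1 in both sample groups of NRK-49F cells. Tagln fell in sample groups 1 and 3. In sample group 4 it had -1.11 with an edgeR adjusted p of 0.314, although its samples at pH 7.4 (2.27, 2.77 and 3.47 FPM) all lay above those at pH 6.0 (1.16 and 1.48 FPM). In sample group 6 it was called (-2.30, edgeR adjusted p = 0.00855), where the samples at pH 7.4 had 0.808, 2.36 and, in A051, 12.5 FPM. Without A051, chosen after seeing the data, Tagln had -0.65 (edgeR adjusted p = 0.239) in sample group 6 and Cald1 -0.32 (adjusted p = 0.124), both no longer called, while Acta2 had -1.21 (adjusted p = 0.000848). Among the members called in NRK-52E cells, Myh11 was the exception. In sample group 1 its level was 5.62 ± 0.40 FPM at pH 7.4 and 6.07 ± 0.64 FPM at pH 6.0, and in sample group 3 it was 5.47 ± 0.53 and 11.2 ± 1.54 FPM (SD, n = 3 each). The log2 fold change was 0.11 (SE 0.16, edgeR adjusted p = 0.597) in the former and 1.02 (SE 0.16, adjusted p = 1.8e-05) in the latter. The difference between these responses was itself called (0.91, SE 0.23, edgeR adjusted p = 0.0131), the only call among the 8 tested genes beside 10.6% of all genes tested. Between sample groups 4 and 6 of NRK-49F cells the share of all genes called was 0%, with 596 at an unadjusted p under 0.05 and 10 called by DESeq2, and none of the 8 was called by either tool. Myh11 was the 1 member among those 596 genes (edgeR adjusted p = 0.997), with log2 fold changes of -0.085 (adjusted p = 0.774) in sample group 4 and -0.58 (adjusted p = 0.0104) in sample group 6, where it fell.

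**Figure D3:**
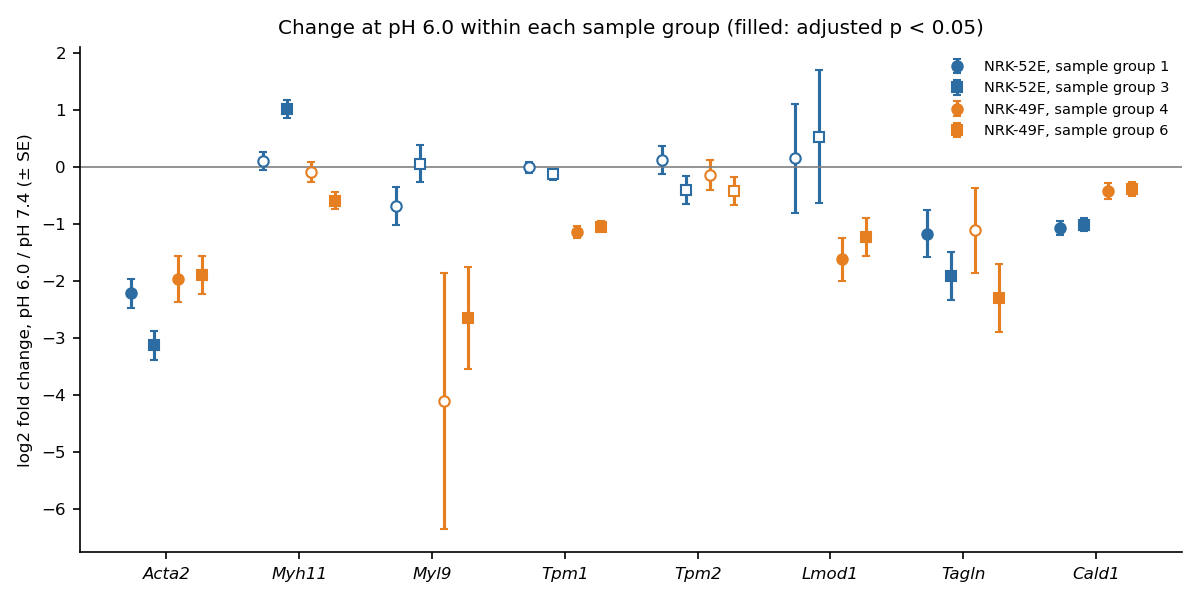
Log2 fold change from pH 7.4 to pH 6.0 of the 8 tested genes within each sample group, from a single model with 8 conditions, with standard errors as bars and filled points for an adjusted p under 0.05. The points of Acta2 and Cald1 are filled in all 4 sample groups, whereas Myh11 stands at 0.11 in sample group 1 and at 1.02 in sample group 3 of NRK-52E cells.

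Among 8 regulators of the programme, 7 were tested, of which 4 fell and 1 rose in NRK-52E cells and 4 fell in NRK-49F cells. These counts and those of the lists that follow stand beside 36.6% of all genes tested called lower and 24.7% higher in the former line, and 14.4% and 14.5% in the latter. Srf, the transcription factor that binds the CArG box, fell in both lines. Its range in NRK-52E cells was 85.7 to 97.9 FPM at pH 7.4 and 50.3 to 64.1 FPM at pH 6.0, and in NRK-49F cells 44.9 to 56.1 FPM and 24.6 to 30.3 FPM, without overlap in either line. The log2 fold changes of Srf were -0.66 (SE 0.07, edgeR adjusted p = 2.77e-08) and -0.82 (SE 0.08, adjusted p = 1.69e-08). The RefSeq window of Srf itself held 2 CArG boxes whose 6 middle letters were all A or T, a stricter form found in 1.5% of all windows.
Srf, chr9:21923826-21924075, plus strand: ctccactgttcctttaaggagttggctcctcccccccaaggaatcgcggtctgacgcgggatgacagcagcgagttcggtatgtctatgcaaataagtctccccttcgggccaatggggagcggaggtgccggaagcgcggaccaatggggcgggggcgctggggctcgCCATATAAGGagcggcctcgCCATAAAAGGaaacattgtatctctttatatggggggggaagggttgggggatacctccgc
Mrtfa, a myocardin-related cofactor that is held in the cytoplasm by free actin, fell in both lines (log2 fold changes -0.73 and -0.56, edgeR adjusted p = 0.000263 and 0.0108). Gata6, a factor of vascular smooth muscle, fell in both as well (-0.78 and -1.13, edgeR adjusted p = 4.16e-05 and 3.71e-06). Tead1, which binds the MCAT motif, fell in NRK-52E cells (-0.72, edgeR adjusted p = 0.0296) and had -0.76 with an adjusted p of 0.0687 in NRK-49F cells. Klf4, a repressor of the smooth muscle programme, fell in NRK-49F cells, where its mean was 208 FPM at pH 7.4 and 125 FPM at pH 6.0 (-0.74, edgeR adjusted p = 0.000576), and had -0.055 with an adjusted p of 0.809 in NRK-52E cells, at 3.24 and 3.16 FPM. Elk1, which competes with the myocardin family for Srf, rose in NRK-52E cells (0.33, edgeR adjusted p = 0.0142). Mrtfb had -0.71 and -0.51 with adjusted p-values of 0.0923 and 0.346, and Myocd was not tested.

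The lists around these genes were described by their counts in the same way. Of 11 tested cross-linkers and adhesion genes that are known targets of Srf, 6 fell and 1 rose in NRK-52E cells and 10 fell in NRK-49F cells. The median log2 fold changes of this list were -0.27 and -0.78. Zyx (zyxin) had -1.19 and Ccn2, the connective tissue growth factor, -1.12 in NRK-52E cells, while Vcl (vinculin) rose by 0.22. In NRK-49F cells Ccn2 had -3.04, from 4315 to 524 FPM, Ccn1 -2.44 and the actin cross-linker Flna -1.27. Of 12 tested paralogs of the members, 5 fell and 2 rose in NRK-52E cells and 9 fell in NRK-49F cells. The cytoplasmic actin Actb fell in both lines (-0.96 and -0.93), with means of 3036 and 1563 FPM in NRK-52E and 3034 and 1590 FPM in NRK-49F cells. The nonmuscle myosin Myh9 fell in NRK-52E cells (-0.76) and the calponin paralog Cnn2 in NRK-49F cells (-1.15), whereas Cnn3 and Tpm4 rose in NRK-52E cells (0.44 and 0.19). The counting let reads that map to several genes count for each of them, so actin paralogs may share reads.

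Other genes of the contractile apparatus moved both ways. Of 14 tested, 6 fell and 4 rose in NRK-52E cells, and 3 fell and 3 rose in NRK-49F cells, with medians of -0.24 and 0.037. Des, the muscle intermediate filament desmin, rose from 0.986 to 19.9 FPM in NRK-52E cells (4.34, edgeR adjusted p = 4.84e-13) and by 0.82 in NRK-49F cells. Hspb6, a small heat shock protein that relaxes smooth muscle, rose in both lines (1.66 and 1.47). Ppp1r14a, the inhibitor of myosin phosphatase, fell in NRK-52E cells (-2.48), and Nexn, which binds actin filaments, fell in both (-1.11 and -1.30). Among 11 tested genes of RhoA signalling and myosin phosphorylation, 5 rose and 2 fell in NRK-52E cells and 5 fell in NRK-49F cells. Within sample group 1 of NRK-52E cells 1 rose and 1 fell, and within sample group 3 of that line 4 rose and 2 fell. Rock1, the kinase downstream of RhoA, rose in NRK-52E cells (0.82), and Rnd3, an antagonist of RhoA, fell in both lines (-0.39 and -0.76). Of 13 tested matrix and surface genes of myofibroblasts, 11 fell in NRK-52E and 7 in NRK-49F cells. In NRK-49F cells the largest falls among these were those of Thbs1 (-1.73), Lox (-1.64) and Col3a1 (-1.49). In NRK-52E cells Col1a2 had -5.17 and Cdh11 -4.07 from means of 13.5 and 0.627 FPM, both at or under 0.35 FPM at pH 6.0. The signal of NRK-49F cells was also higher in the NRK-52E samples at pH 7.4 than at pH 6.0, as given above, and its part in these falls was not tested.

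**Figure D4:**
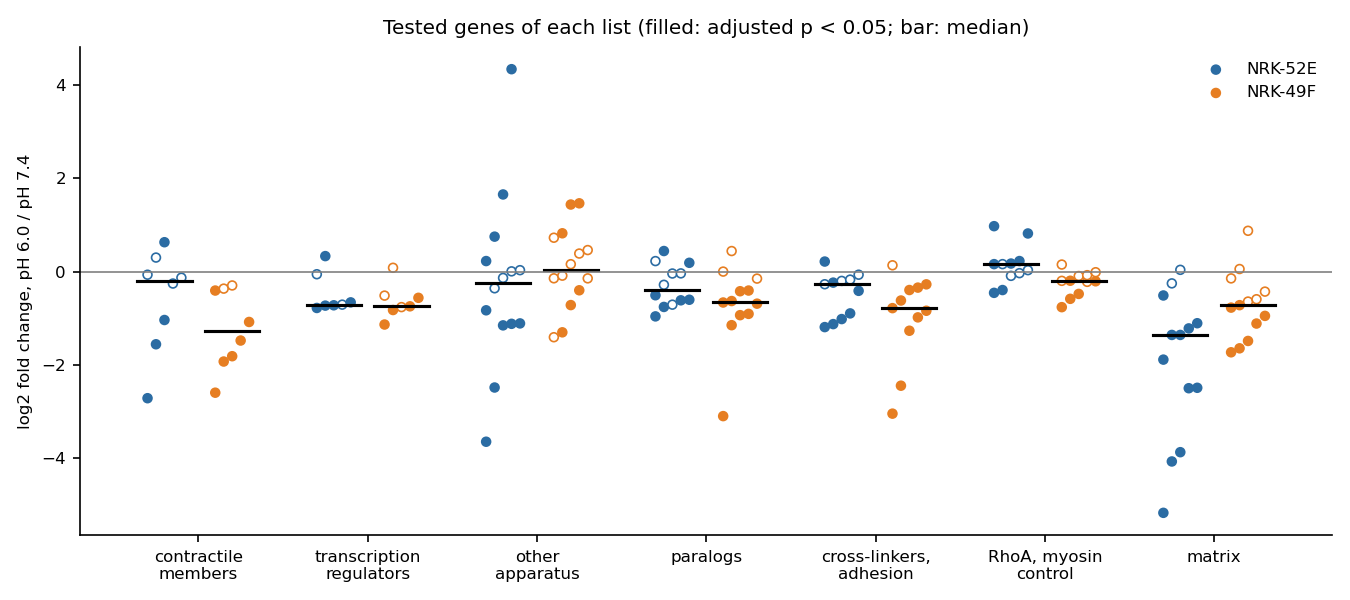
Log2 fold change from pH 7.4 to pH 6.0 of each tested gene of the contractile list and of 6 related lists, in NRK-52E (blue) and NRK-49F cells (orange), with filled points for an adjusted p under 0.05 and bars at the medians. The medians of the contractile list are -0.19 and -1.28, and those of the cross-linkers -0.27 and -0.78.

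The pattern of Acta2 over the 23 samples was compared with that of the 10056 genes that have a symbol and a mean of at least 5 FPM, by the root mean square difference of centred log2(FPM + 0.5). The nearest were Cpz (0.41), Smtnl2 (0.46), Scx (0.50), AU018091 (0.50) and Kcnh2 (0.52). Cpz, a carboxypeptidase, had means of 67.8 and 20.1 FPM in NRK-52E cells at pH 7.4 and pH 6.0 and 1.98 and 0.30 FPM in NRK-49F cells. Smtnl2, a smoothelin-like gene, had 48.3, 7.29, 1.05 and 0.23 FPM in the same order, and Scx, the tendon factor scleraxis, 304, 93.8, 7.21 and 1.91 FPM. Tagln came at rank 140 and Tpm1 at rank 348, with Cald1 at 1163, Myh11 at 7398 and Tpm2 at 8632. The likeness is a description over samples that share lines and pH values.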

How the data were processed

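RNA of the rat cells was sequenced from both fragment ends. For each Ensembl gene the deposited table gives raw counts, which the authors made with HISAT2 2.1.0 and featureCounts on exons, multi-mapping reads included, without normalization. The methods name rat genome rn7 and the submitters' processing notes rn6, so no coordinate of the table is given. Of its columns, 23 were used, and 13 that matched no sample label were not.

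Genes were kept by filterByExpr (minimum count 10, minimum total 15), scaled by TMM and tested across 4 conditions, or 8 for sample groups, by the quasi-likelihood test of edgeR 4.0.16 in R 4.3.3, with Benjamini-Hochberg adjustment. DESeq2 1.42.0, other scalings, filters and thresholds, thinning to 16412564 counts, the sample group as a term and leaving out each replicate were alternatives. The test was first checked on simulated counts in which 200 genes were changed. In the data 9049 of 14777 genes were called in NRK-52E cells, so the check does not cover scaling when many genes move. Python 3.11.15 with matplotlib 3.10.9 drew the plots.

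All members and regulators are named, and from each related list at most the 3 largest rises and falls called in a line, where the mean over the 23 samples reached 5 FPM, the 5 genes nearest Acta2, and markers that check the labels. Nde1 was named after its values were seen. The members and lists were chosen with earlier results of these data known. Human samples were not analysed here.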

Additional observations from a re-analysis of the deposited data

Results flagged for a closer look

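Of 40 sets of FPM values (10 genes in 4 conditions), 3 held a sample whose gap to the nearest other sample took up more of the range than Dixon's 95% value allows, and chance gives about 1 in 20. For Tagln in NRK-49F cells at pH 7.4, sample A051 (12.5 FPM, the next 3.47 FPM) had a ratio of 0.772, and this sample also held the most signal of NRK-52E cells. For Cnn1 in NRK-52E cells at pH 7.4, sample A023 had a ratio of 0.75 at 6 counts. For Tpm2 in NRK-52E cells at pH 7.4, sample A035 (354 FPM, the next 243 FPM) had a ratio of 0.716. Between the lines, the test of the difference of the responses (log2, NRK-49F minus NRK-52E) picked out Myl9 (-2.34), Myh11 (-0.99), Tpm1 (-1.01) and Cald1 (0.63). Between sample groups 1 and 3 of NRK-52E cells it picked out Myh11 (0.91). The causes were not tested.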

How the results depend on the processing

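The counts of members called in each line, between the lines and in the difference of the responses moved by at most 1.5 times under every alternative run. In NRK-52E cells they were the same 4 genes except within sample group 1, where Myh11 was lost. In NRK-49F cells there were 4 within sample group 4 (without Tagln and Myl9) and 7 within sample group 6 (with Myh11), or 4 there (Acta2, Myh11, Tpm1 and Lmod1) without A051, an alternative chosen after seeing the data. Among all 14777 genes tested, 7232 were called within sample group 1, 3403 within sample group 4 and 3127 within sample group 6. Without A051, 2440 of 15436 were called within sample group 6. The count between sample groups 1 and 3 was 0 at an adjusted p under 0.01 and 2 without A021 and A051 (chosen after seeing the data), where Acta2 was added, and ranged from 1 to 2 with single replicates left out. Of 56 values of single members, 12 turned direction under some alternative, and 0 of these had passed the test. Within sample groups, Myl9 (0.063, sample group 3) and Tpm2 (0.13, sample group 1) turned in NRK-52E cells, as did Tpm1 (0.024) with that line alone, where the median of all genes moved from -0.12 to -0.0023. Without A021 and A051, Tagln turned in the difference of the responses (0.59) and between sample groups 4 and 6 (0.46), and Cald1 between sample groups 1 and 3 (-0.0094). With single replicates left out, Tpm2 in NRK-52E cells ranged from -0.21 to 0.0099, the difference of Tagln from -0.45 to 0.54 and Myh11 between the lines at pH 6.0 from -0.17 to 0.088. Between sample groups 1 and 3, Lmod1 then ranged from -0.83 to 3.22 and Cald1 from -0.041 to 0.14. Between sample groups 4 and 6, Acta2 ranged from -0.23 to 0.75, Tagln from -1.65 to 0.46, Myl9 from -0.11 to 2.11, Tpm2 from -0.64 to 0.21 and Cald1 from -0.12 to 0.22. The call of Myl9 in NRK-49F cells was lost in thinned libraries (adjusted p = 0.133), and with the line alone the gene did not pass the filter and was not tested. Of all genes, 4270 were called in NRK-49F cells and 2661 at an adjusted p under 0.01. Between sample groups 1 and 3 they were 1573 and 698, and 1048 without A026. Between sample groups 4 and 6 there were 0, 10 by DESeq2 and up to 7 with a replicate left out. At this depth Actg2, Cnn1, Lmod1 in NRK-52E and Myl9 in NRK-49F cells were near 3 counts. No paired analysis was possible because no replicate code is shared between conditions.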
